A study of Mus musculus with 3 samples.

Results

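The genes described are 7 members of the plasminogen activator and serpin system, the 2 activators Plat and Plau, the receptor Plaur and the serpins Serpina3n, Serpinb6a, Serpine2 and Serpinf1, taken by every probe set whose single annotated symbol is a member. Of the 7 members 6 had a named probe set, with 9 probe sets in all, out of 18193 named genes on the array. Serpine2, which encodes an inhibitor of thrombin and of both activators, had no probe set with that symbol in the annotation table and was not analysed here.

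The arrays measured endosteal cells, which line the inner surface of bone, freed by collagenase from the thigh and shin bones of C57BL/6 mice. Cells lacking CD45 (blood cells), CD31 (endothelium) and Ter119 (the red cell line) were sorted on the adhesion molecule ALCAM and the progenitor marker Sca-1. Each of 3 populations had 1 array: those with ALCAM and no Sca-1 (ALCAM+ Sca-1-, in short ALCAM+), those with Sca-1 and no ALCAM (ALCAM- Sca-1+, in short Sca-1+), and those with neither (ALCAM- Sca-1-, in short marker-negative). The age, sex and number of the mice, and whether animals were pooled, are not given in the sources used here.

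Plasminogen activators are serine proteases that cut the circulating proenzyme plasminogen into plasmin, which dissolves fibrin and degrades matrix. The tissue-type activator is tied to fibrin, and the urokinase type acts on cell surfaces, where the urokinase receptor holds it. Serpins are a fold family: most trap a target protease by offering a bait loop and are consumed in the reaction, whereas some have lost inhibition and act as chaperones or signals. In bone these proteins are known from matrix remodelling, from the marrow niche and from mineral disease.

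With 1 array per population there was no test and no p-value, and no difference has a replicate check. Values are signals of the array maker's MAS5 procedure on a linear scale. Signals at or below 75.4, the pooled median after control probe sets were set aside, were raised to that floor before a fold or log2 difference was taken, and a fold against a floored value is written as at least its size. A gene was read from whichever of its probe sets had the highest mean, and the words higher and lower beside a count refer to a size rule of 4-fold. Where a gene had 2 probe sets that passed the floor throughout, as 4152 genes did, their log2 differences disagreed with an SD of 0.54 for ALCAM+ over marker-negative, 0.67 for Sca-1+ over marker-negative and 0.75 for ALCAM+ over Sca-1+. This SD leaves out the spread between sorts and between mice, which was not measured. Fewer cells of a type and less RNA per cell cannot be told apart in sorted populations.

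The members did not follow a common pattern. Plat and Serpina3n were brightest in Sca-1+ cells and dimmest in ALCAM+ cells, Serpinb6a was also brightest in Sca-1+ cells, and Plau passed the floor in Sca-1+ cells alone. Serpinf1 was brightest in ALCAM+ cells and dimmest in marker-negative cells, although scaling on spiked control RNAs put its Sca-1+ signal first, and Plaur differed least among the members above the floor on the 3 arrays.

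In ALCAM+ against marker-negative cells 0 of 6 members were at least 4-fold higher and 1 was lower, Serpina3n, where 2.01% of the 12643 genes that passed the floor on at least 1 array were higher and 2.67% lower. In Sca-1+ against marker-negative cells 2 of 6 members, Plat and Serpina3n, were higher and 0 lower, against 5.46% higher and 4.71% lower over all measured genes. In ALCAM+ against Sca-1+ cells the same 2 members were lower and 0 higher, against 5.86% lower and 3.99% higher. The last comparison is the difference of the others and shares their arrays, so it adds no independent measurement. The median log2 difference of the members was 0.09 in ALCAM+ over marker-negative, 1.49 in Sca-1+ over marker-negative and -1.26 in ALCAM+ over Sca-1+, beside -0.03, 0.00 and -0.01 over all measured genes. With 6 members, each passing the floor on at least 1 array, these counts and medians describe these arrays and these genes.

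**Figure D1:**
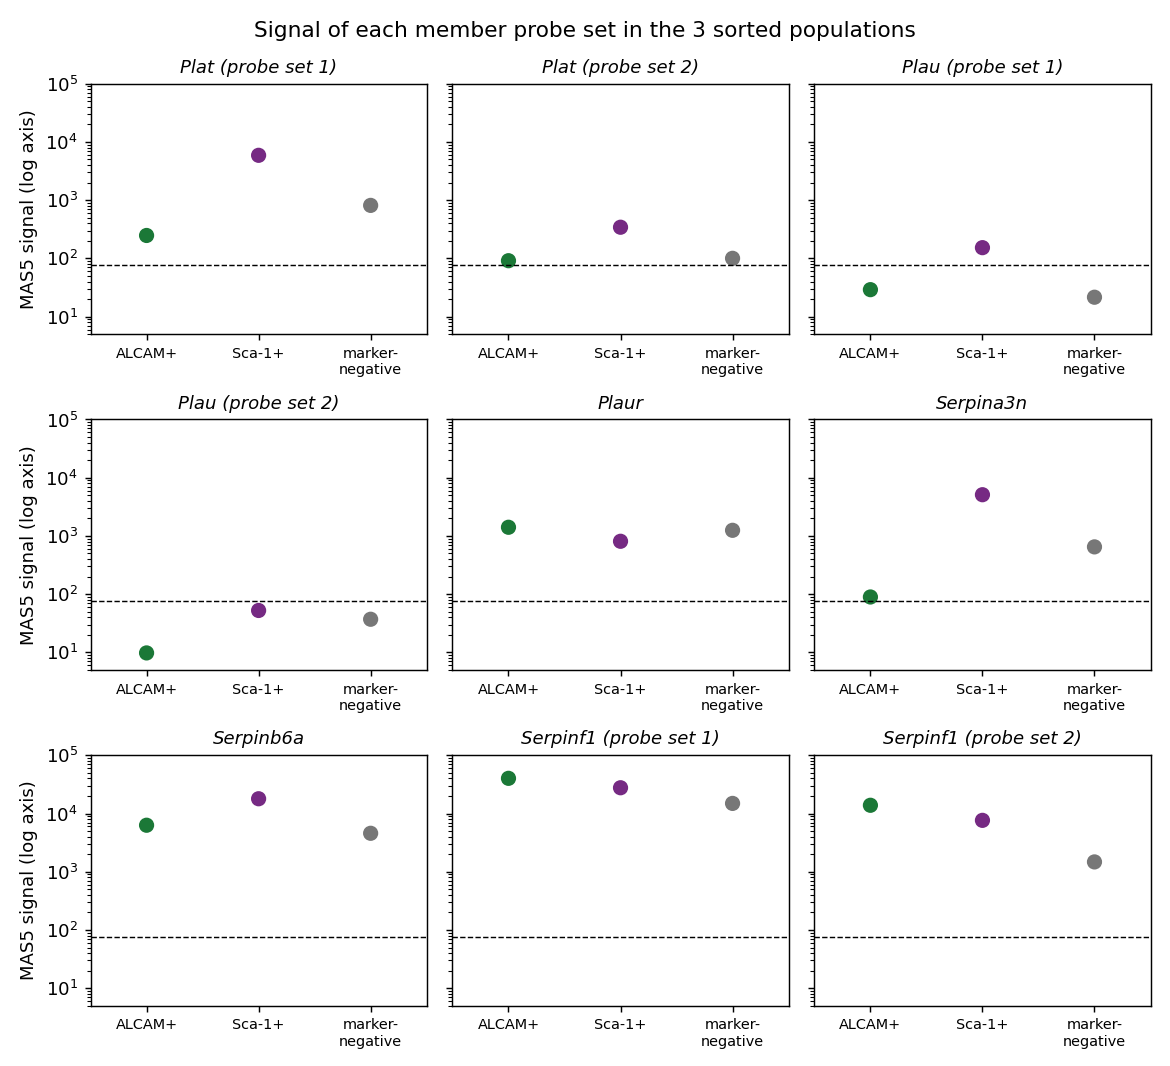
MAS5 signal on a log axis (vertical) of the 9 member probe sets in ALCAM+ cells, Sca-1+ cells and marker-negative cells (horizontal), 1 point per array, with the floor of 75.4 dashed. Plat and Serpina3n stand highest in Sca-1+ cells, both Serpinf1 probe sets stand highest in ALCAM+ cells (the brighter one turns to Sca-1+ cells under spike-in scaling), and Plaur lies between 809.7 and 1409 on the 3 arrays.

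Plat encodes the tissue-type plasminogen activator. Its brighter probe set had 247.0 in ALCAM+ cells, 5877 in Sca-1+ cells and 811.5 in marker-negative cells. The Sca-1+ signal stood far above the other two, and ALCAM+ cells were the dimmest. Sca-1+ cells were 7.24-fold above marker-negative cells (log2 difference 2.86), and 2.46% of measured genes were at least as far up in that comparison. ALCAM+ cells were 3.29-fold below marker-negative cells (log2 difference -1.72), which missed the 4-fold rule, and 23.8-fold below Sca-1+ cells (log2 difference -4.57), which 0.918% of measured genes reached on that side.

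The other Plat probe set kept Sca-1+ cells as the brightest but gave smaller folds. It had 91.1 in ALCAM+ cells, 342.2 in Sca-1+ cells and 100.1 in marker-negative cells. It put Sca-1+ cells 3.42-fold above marker-negative cells and ALCAM+ cells 3.76-fold below Sca-1+ cells, so neither difference passed 4-fold there. Between ALCAM+ and marker-negative cells it differed 1.10-fold, so the gap of the brighter probe set was not seen by both. The dimmer probe set lay close to the floor outside Sca-1+ cells. Scaling on the spiked poly-A or hybridization controls brought the ALCAM+ over marker-negative gap of the brighter probe set to 4.75-fold or 4.53-fold, past the 4-fold rule.

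Plau encodes urokinase. The brighter of its 2 probe sets had 29.0 in ALCAM+ cells, 152.6 in Sca-1+ cells and 21.5 in marker-negative cells. Only the Sca-1+ array was above the floor, which makes Sca-1+ cells at least 2.02-fold higher than either other population. The other probe set stayed below the floor throughout, at 9.80, 52.5 and 37.1 in ALCAM+ cells, Sca-1+ cells and marker-negative cells. With the floor at the 25th percentile, 21.1, the brighter probe set was 7.10-fold above marker-negative cells in Sca-1+ cells and 5.26-fold below Sca-1+ cells in ALCAM+ cells, so its 4-fold call depends on where the floor is set.

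Plaur encodes the urokinase receptor, a surface protein anchored by a lipid tail. Its single probe set had 1409 in ALCAM+ cells, 809.7 in Sca-1+ cells and 1250 in marker-negative cells. All 3 arrays were well above the floor and close to each other. ALCAM+ cells were 1.13-fold above marker-negative cells, Sca-1+ cells 1.54-fold below marker-negative cells and ALCAM+ cells 1.74-fold above Sca-1+ cells. The log2 differences of 0.17 and -0.63 against marker-negative cells were smaller than the SD between probe sets of a gene, and that of 0.80 between ALCAM+ and Sca-1+ cells was slightly larger than its SD of 0.75. The ALCAM+ over marker-negative direction turned when the arrays were scaled on spiked control RNAs (log2 difference -0.36 on the poly-A controls and -0.29 on the hybridization controls), and the ALCAM+ over Sca-1+ difference became -0.04 and 0.04. The receptor thus had signal in all 3 populations, whereas its ligand gene Plau passed the floor in 1.

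The window around the Plaur start site is shown because it carries the AP-1 letters TGANTCA, and AP-1 factors are known from human cells to act on this gene. It spans chr7:24462233-24462532 on the plus strand of GRCm38.p6, from RefSeq, 250 bases before to 50 after the start, with AP-1 and GC box (GGGCGG) letters in capitals.
Plaur: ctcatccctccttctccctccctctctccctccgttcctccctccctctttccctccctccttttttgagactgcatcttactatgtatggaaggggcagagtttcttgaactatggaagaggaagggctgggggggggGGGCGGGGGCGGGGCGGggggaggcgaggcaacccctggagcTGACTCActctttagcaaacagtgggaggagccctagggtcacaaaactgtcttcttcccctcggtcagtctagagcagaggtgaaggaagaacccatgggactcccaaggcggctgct
The AP-1 letters begin 69 bases before the start site, and the 3 GC boxes, which share letters where they overlap, begin 111, 105 and 100 bases before it. Counting both strands, 7.81% of the 32851 windows of 300 bases in the RefSeq promoter table held the AP-1 letters and 35.7% a GC box. A match of letters is a description and not a binding site.

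Serpina3n encodes a secreted inhibitor of the antichymotrypsin group, an acute phase protein that in mouse blocks granzyme B and neutrophil elastase. Its single probe set had 89.5 in ALCAM+ cells, 5105 in Sca-1+ cells and 648.9 in marker-negative cells. It had the widest range of the members: ALCAM+ cells sat just above the floor and Sca-1+ cells stood alone at the top. Sca-1+ cells were 7.87-fold above marker-negative cells (log2 difference 2.98), a distance that 2.23% of measured genes reached. ALCAM+ cells were 7.25-fold below marker-negative cells (log2 difference -2.86), a distance that 0.989% reached on that side. ALCAM+ cells were 57.0-fold below Sca-1+ cells (log2 difference -5.83), which 33 of the measured genes (0.261%), itself included, reached on that side. With the floor at the 75th percentile, 433.9, the ALCAM+ over marker-negative difference shrank to at least 1.496-fold, since the ALCAM+ signal then lies under the floor.

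Serpina3n lies in a cluster of near-identical mouse genes, so probes for it can catch a paralogue. In the gene order of the RefSeq table its neighbours were Serpina3m, which had no named probe set, and Gsc. The other genes of the group with a named probe set, Serpina3a and Serpina3i, stayed below the floor throughout, at most 40.2 and 51.1.

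The window around the Serpina3n start site is shown as that of the member with the widest range, chr12:104406458-104406757 on the plus strand of GRCm38.p6, from RefSeq.
Serpina3n: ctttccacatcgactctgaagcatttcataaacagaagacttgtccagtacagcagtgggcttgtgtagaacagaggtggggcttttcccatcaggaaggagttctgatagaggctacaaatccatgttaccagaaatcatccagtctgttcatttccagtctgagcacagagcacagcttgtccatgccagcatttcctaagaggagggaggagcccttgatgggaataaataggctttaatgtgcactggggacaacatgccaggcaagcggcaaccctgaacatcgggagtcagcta
It held none of the letters searched on either strand (AP-1 TGANTCA, STAT TTCNNNGAA, Runx TGTGGT, GC box GGGCGG and TATAAA), which says only that these letters are not in this window. TATAAA stood in 13.6% of all windows.

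Serpinb6a encodes an intracellular serpin that guards cells against leaked proteases such as cathepsin G. Its single probe set had 6298 in ALCAM+ cells, 17947 in Sca-1+ cells and 4579 in marker-negative cells. The Sca-1+ signal was the highest and the other two lay near each other. Sca-1+ cells were 3.92-fold above marker-negative cells (log2 difference 1.97), just short of the 4-fold rule, and ALCAM+ cells were 2.85-fold below Sca-1+ cells. It passed 4-fold in Sca-1+ over marker-negative cells after quantile normalization (4.47-fold) and under either spike-in scaling (4.85-fold and 4.83-fold), and those 2 scalings also put ALCAM+ cells 5.09-fold and 4.84-fold below Sca-1+ cells. Between ALCAM+ and marker-negative cells the difference was 1.38-fold, smaller on the log2 scale (0.46) than the SD between probe sets, and the log2 difference became -0.07 and 0.00 under those scalings.

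The RefSeq table gives 2 start windows for Serpinb6a. The upstream one, on chromosome 13 from 34002745, held 2 STAT matches and 3 GC boxes, and the other, from 33936034, held none of the letters searched. STAT letters stood in 8.30% of all windows. The array does not tell which start the transcripts used. Its neighbour Serpinb6c was below the floor on the 3 arrays, and the related Serpinb6b had 118.9 in ALCAM+ cells, 15.5 in Sca-1+ cells and 241.5 in marker-negative cells, with its lowest signal where Serpinb6a had its highest.

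Serpinf1 encodes pigment epithelium-derived factor, a secreted serpin without inhibitory activity that binds collagen and slows vessel growth, and whose loss in humans causes a form of brittle bone disease with poor mineralization. Its brighter probe set had 40228 in ALCAM+ cells, 27727 in Sca-1+ cells and 14925 in marker-negative cells. The other probe set had 13861 in ALCAM+ cells, 7638 in Sca-1+ cells and 1477 in marker-negative cells. Both gave the same order, and both were far above the floor on every array.

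The 2 Serpinf1 probe sets disagreed in size. ALCAM+ cells were 2.70-fold above marker-negative cells by the brighter (log2 difference 1.43, reached by 3.67% of measured genes) and 9.39-fold by the other (log2 difference 3.23). Sca-1+ cells were 1.86-fold and 5.17-fold above marker-negative cells. Both gaps between the probe sets, 1.80 and 1.48 on the log2 scale, were wider than the SD between probe sets of a gene in their comparison. Averaging the probe sets gave 5.03-fold for ALCAM+ over marker-negative cells, so Serpinf1 passes or misses 4-fold by the choice of probe set. ALCAM+ cells were 1.45-fold and 1.81-fold above Sca-1+ cells by the brighter and the other probe set, and the brighter one turned to a log2 difference of -0.30 or -0.23 under the poly-A or hybridization control scaling, which moved the median of all measured genes to -0.78 or -0.72.

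The Serpinf1 start window is shown because it held 2 copies of the Runx letters TGTGGT, in capitals. Runx factors are known regulators of bone-forming cells. It lies at chr11:75422574-75422873 on the minus strand of GRCm38.p6, from RefSeq.
Serpinf1: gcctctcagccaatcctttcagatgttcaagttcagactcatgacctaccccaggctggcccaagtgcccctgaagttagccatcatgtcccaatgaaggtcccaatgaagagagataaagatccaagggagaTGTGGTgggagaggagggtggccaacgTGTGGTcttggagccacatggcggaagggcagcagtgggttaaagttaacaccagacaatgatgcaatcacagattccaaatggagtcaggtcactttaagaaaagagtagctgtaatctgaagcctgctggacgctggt
The copies begin 117 and 90 bases before the start site. The letters stood in 16.8% of all windows on either strand, and the windows of Plaur, Serpina3n and Serpinb6a had none. The neighbouring Serpinf2, which encodes the main plasma inhibitor of plasmin, stayed below the floor throughout, at 17.7, 8.0 and 12.3 in ALCAM+ cells, Sca-1+ cells and marker-negative cells.

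**Figure D2:**
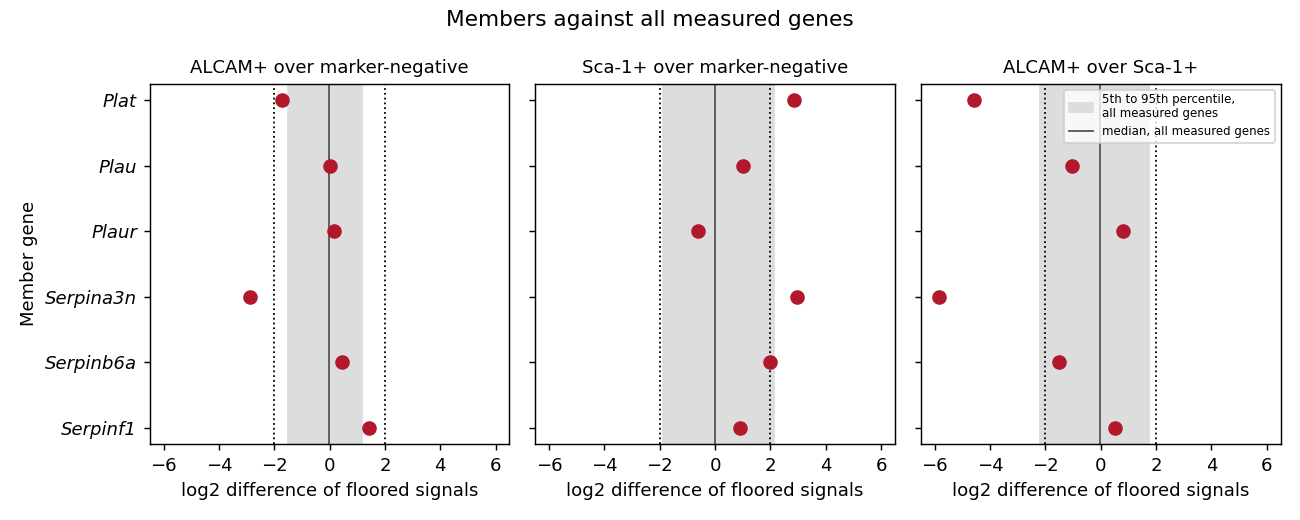
Log2 difference of floored signals (horizontal) for the 6 members (vertical) in the 3 comparisons, with the range from the 5th to the 95th percentile of the 12643 measured genes in grey, their median as a line and 4-fold as dotted lines. Serpina3n and Plat lie outside the grey range in all 3 panels, Serpinf1 lies outside it in ALCAM+ over marker-negative, and Plau, Plaur and Serpinb6a lie inside it throughout.

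The genes whose profile over the 3 arrays lay closest to a member were sought among 11171 genes above the floor on at least 2 arrays, for members with at least 4-fold between their highest and lowest floored signals, which were Plat and Serpina3n. Likeness was the largest gap between centred log2 signals. For Plat the nearest were Mn1 (gap 0.02), Adamtsl3 (0.03) and Stxbp6 (0.09). Mn1 had 203.2 in ALCAM+ cells, 4941 in Sca-1+ cells and 664.6 in marker-negative cells. For Serpina3n the nearest were S100a8 (0.09), a neutrophil granule gene, Meox2 (0.09), a homeobox gene, and Uts2r (0.14). S100a8 had 77.3 in ALCAM+ cells, 4901 in Sca-1+ cells and 575.9 in marker-negative cells. Such likeness rests on 3 values per gene and is a description.

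Markers of other cell types differed between the same populations. Of 8 neutrophil markers 7 had a probe set, of which 2 were above the floor in ALCAM+ cells, 6 in Sca-1+ cells and 5 in marker-negative cells, with summed signals of 383.2, 14476 and 2952. S100a8, S100a9, Ngp, Camp and Ltf peaked in Sca-1+ cells, whereas 2 of the 7 peaked in marker-negative cells: Mpo had 25.2 in ALCAM+ cells, 91.4 in Sca-1+ cells and 1355 in marker-negative cells, and Elane 37.3, 63.5 and 483.0. Camp and Ltf were at or below the floor in marker-negative cells. The 8 fibroblast and progenitor markers summed to 5664 in ALCAM+ cells, 96273 in Sca-1+ cells and 2491 in marker-negative cells, with Pi16, Cd248 and Dpp4 at or below the floor outside Sca-1+ cells. Both sums were highest in the population where Plat, Serpina3n and Serpinb6a were highest, and their part in those results was not tested. The 8 macrophage markers summed to 1490, 1873 and 1335 in ALCAM+ cells, Sca-1+ cells and marker-negative cells. Adgre1, Mrc1 and Itgam were at or below the floor on each array. Lyz2 (96.6, 888.0 and 262.3) and Cd68 were brightest in Sca-1+ cells, whereas Csf1r, Cd14 and Ctss were brightest in ALCAM+ cells.

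Osteoblast markers, 6 of 8 with a probe set, summed to 128893 in ALCAM+ cells, 8600 in Sca-1+ cells and 45463 in marker-negative cells. Serpinf1 shared their peak in ALCAM+ cells, but its Sca-1+ signal was above the marker-negative one, where the osteoblast sum was lower. Red cell precursor markers, 7 of 8 with a probe set, summed to 403.5, 282.5 and 15933 in the same order of populations. The 8 chondrocyte markers summed to 209834, 4316 and 172759, with Matn1 and Col10a1 below the floor in Sca-1+ cells. These were the largest sums of any list in ALCAM+ cells and in marker-negative cells, but not in Sca-1+ cells. Like this sum, the serpins Serpina1b, Serpina1c and Serpini1 and the genes A2m, Mmp13 and Fgg, described further on, were lowest in Sca-1+ cells. The 8 pericyte markers summed to 10421, 10267 and 16581, with Cspg4 at 8932, 3278 and 10408. Acta2, Rgs5 (58.6, 2333 and 276.1), Des and Notch3 were brightest in Sca-1+ cells. Cspg4, Tagln, Myh11 and Mcam were brightest in marker-negative cells. The 7 measured megakaryocyte markers summed to 1284, 2259 and 2006. Among them Itga2b alone was brightest in Sca-1+ cells, at 210.7, 1687 and 326.1. Pf4, Gp1bb, Vwf, Selp and Treml1 were brightest in marker-negative cells, and Gp9 stayed below the floor. The part of these cell types in the results was not tested. On the arrays Alcam had 267.7 in ALCAM+ cells, 41.1 in Sca-1+ cells and 36.3 in marker-negative cells, Pecam1 was below the floor throughout, and Ptprc, which encodes CD45, had 11.6, 163.2 and 159.4. The gene of Sca-1, Ly6a, had no named probe set and was not analysed here.

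Other serpins were counted over every further gene of the array whose symbol starts with Serpin, 37 genes with a probe set, of which 14 were above the floor on at least 1 array. In ALCAM+ against marker-negative cells 0 of the 14 were at least 4-fold higher and 0 lower. In Sca-1+ against marker-negative cells 3 were higher and 2 lower, and in ALCAM+ against Sca-1+ cells 3 were higher and 3 lower. Their median log2 difference was 0.00, 0.00 and 0.25 in the 3 comparisons, beside -0.03, 0.00 and -0.01 over all measured genes. The shares of all measured genes were 2.01% higher and 2.67% lower in the first of these comparisons, 5.46% and 4.71% in the second, and 3.99% and 5.86% in the last. Under either spike-in scaling the serpin counts became 0 higher and 1 lower, 4 and 2, and 3 and 5, with Serpina1b, Serpinb8 and Serpinb9 added. Of the 14, 5 passed the floor on 1 array alone.

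Among the secreted serpins, Serping1, which encodes the inhibitor of the first complement component and of kallikrein, had 1290 in ALCAM+ cells, 29987 in Sca-1+ cells and 3208 in marker-negative cells. It was 9.35-fold above marker-negative cells in Sca-1+ cells and 23.3-fold below Sca-1+ cells in ALCAM+ cells, the order that Serpina3n had. The Serpina1 genes, which encode the elastase inhibitor antitrypsin, ran the other way. Serpina1b had 6179 in ALCAM+ cells, 213.2 in Sca-1+ cells and 21527 in marker-negative cells, and was 101-fold below marker-negative cells in Sca-1+ cells. Serpina1c had 4888, 64.3 and 11161, at least 148-fold below marker-negative cells in Sca-1+ cells. These genes are near-identical copies and Serpina1b was read by a probe set type that can catch related transcripts, so they do not count as separate observations. Elane, which encodes neutrophil elastase, had 37.3 in ALCAM+ cells, 63.5 in Sca-1+ cells and 483.0 in marker-negative cells. It was brightest where the Serpina1 genes were, but it passed the floor there alone, so this peak is fixed by the filter.

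Of the inhibitors of the activators themselves, Serpini1, which encodes neuroserpin, an inhibitor of the tissue-type activator, had 540.9 in ALCAM+ cells, 20.2 in Sca-1+ cells and 264.1 in marker-negative cells. It was at least 7.17-fold above Sca-1+ cells in ALCAM+ cells, so it was below the floor in the population where Plat was brightest. A second of its 3 probe sets gave the same direction with at least 2.42-fold, short of 4-fold, and the last stayed below the floor throughout. Serpinb2, which encodes a urokinase inhibitor, had 8.80 in ALCAM+ cells, 188.6 in Sca-1+ cells and 1.60 in marker-negative cells. Like Plau it passed the floor in Sca-1+ cells alone, where it was at least 2.501-fold higher than in marker-negative cells.

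Of the other intracellular serpins of the b group, 7 passed the floor on at least 1 array, and 5 were brightest in Sca-1+ cells. Serpinb2, Serpinb7 and Serpinb8 passed it in Sca-1+ cells alone, so their peak there is fixed by the filter. Serpinb6b, described above, and Serpinb6e were brightest in marker-negative cells and dimmest in Sca-1+ cells. Serpinb6e had 354.8 in ALCAM+ cells, 308.5 in Sca-1+ cells and 401.2 in marker-negative cells. Serpinb1a, an inhibitor of neutrophil proteases, had 347.4 in ALCAM+ cells, 2237 in Sca-1+ cells and 136.7 in marker-negative cells and was 16.4-fold above marker-negative cells in Sca-1+ cells. Its other probe set had 13.4, 235.0 and 41.0, and put Sca-1+ cells at least 3.12-fold above marker-negative cells, short of 4-fold. That probe set passed the floor in Sca-1+ cells alone, which fixed its direction. Serpinb7 had 19.1, 1034 and 54.6, at least 13.7-fold above marker-negative cells in Sca-1+ cells. Serpinb9, an inhibitor of granzyme B, had 298.3, 743.3 and 278.3 and missed the 4-fold rule at 2.67-fold. Serpinh1, the collagen chaperone of bone-forming cells, had 32131 in ALCAM+ cells, 15885 in Sca-1+ cells and 23424 in marker-negative cells, and differed by at most 2.02-fold.

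**Figure D3:**
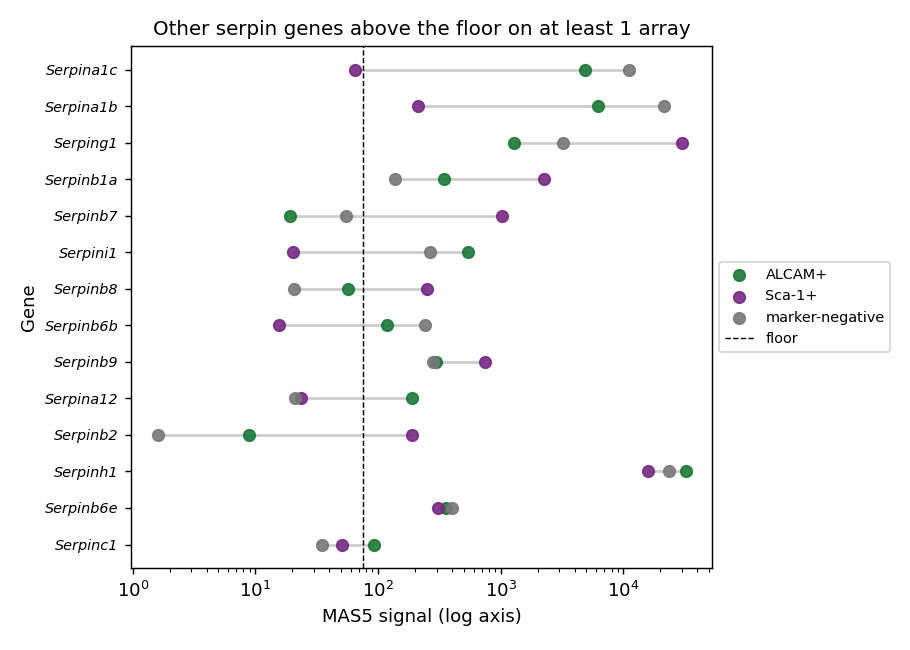
MAS5 signal on a log axis (horizontal) of the 14 other serpin genes that passed the floor on at least 1 array (vertical), 1 point per array coloured by population, with the floor of 75.4 dashed and genes ordered by their largest difference. Serpina1b and Serpina1c have their lowest points in Sca-1+ cells, and Serping1, Serpinb1a and Serpinb7 (above the floor there alone) have their highest there.

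Plasminogen itself is made chiefly by the liver, and Plg stayed below the floor throughout, at 5.70 in ALCAM+ cells, 21.9 in Sca-1+ cells and 8.80 in marker-negative cells. Of 26 genes listed for plasminogen activation, its surface helpers and coagulation, 23 had a probe set and 16 were above the floor on at least 1 array. In ALCAM+ against marker-negative cells 0 were at least 4-fold higher and 2 lower, in Sca-1+ against marker-negative cells 4 were higher and 1 lower, and in ALCAM+ against Sca-1+ cells 1 was higher and 3 lower. Over all measured genes 2.01% were higher and 2.67% lower in the first of these comparisons. The shares were 5.46% and 4.71% in the second and 3.99% and 5.86% in the last. Under either spike-in scaling the lower counts in ALCAM+ cells became 3 against marker-negative cells and 6 against Sca-1+ cells. The lower counts over all genes rose too. On the poly-A and hybridization controls 338 became 584 and 542 against marker-negative cells, and 741 became 1514 and 1403 against Sca-1+ cells. The list's median log2 difference was -0.31, 0.47 and -0.59, where all measured genes stood at -0.03, 0.00 and -0.01. The surface helpers of plasminogen differed little: Anxa2 had 24997, 25045 and 18543 and S100a10 10980, 17530 and 12403 in ALCAM+ cells, Sca-1+ cells and marker-negative cells.

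Of the 5 genes of this list that passed 4-fold in any comparison, 3 encode receptors for thrombin or protein C. Procr, the endothelial protein C receptor, had 82.7 in ALCAM+ cells, 7299 in Sca-1+ cells and 415.9 in marker-negative cells, which put Sca-1+ cells 17.5-fold above and ALCAM+ cells 5.03-fold below marker-negative cells. F2r, the thrombin receptor, had 467.2, 9798 and 2239, which put Sca-1+ cells 4.38-fold above and ALCAM+ cells 4.79-fold below marker-negative cells. A further F2r probe set had the same direction and passed 4-fold. Thbd, thrombomodulin, had 483.8, 4580 and 889.9, 5.15-fold above marker-negative cells in Sca-1+ cells. These 3 genes had the order of Plat and Serpina3n. Since the same proteins are known from vessel lining, the 8 endothelial markers were read beside them: 2 were above the floor in ALCAM+ cells, 1 in Sca-1+ cells and 2 in marker-negative cells, with summed signals of 309.2, 832.1 and 458.8, and Pecam1, Cdh5, Emcn and Tie1 were at or below the floor on each array. The marker above it in Sca-1+ cells was Tek, with 28.8 in ALCAM+ cells, 630.6 in Sca-1+ cells and 18.8 in marker-negative cells, which peaked where Procr, F2r and Thbd did. The part of endothelial cells in these results was not tested. Tfpi2, a protease inhibitor of the matrix, had 497.4, 1814 and 160.1, 11.3-fold above marker-negative cells in Sca-1+ cells. A2m, the broad protease trap macroglobulin, had 1042, 64.9 and 2353, at least 31.2-fold below marker-negative cells in Sca-1+ cells.

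Lrp1, the receptor that clears serpin and protease complexes, had 4599 in ALCAM+ cells, 14740 in Sca-1+ cells and 5365 in marker-negative cells, 2.75-fold above marker-negative cells in Sca-1+ cells. Among 9 measured partners of the urokinase receptor and receptors of its complexes, 3 were at least 4-fold above marker-negative cells in Sca-1+ cells and 0 lower, 1 was higher and 0 lower in ALCAM+ against marker-negative cells, and 0 were higher and 2 lower in ALCAM+ against Sca-1+ cells, or 3 lower under either spike-in scaling. Over all measured genes 5.46% were higher and 4.71% lower in Sca-1+ against marker-negative cells, 2.01% and 2.67% in ALCAM+ against marker-negative cells, and 3.99% and 5.86% in ALCAM+ against Sca-1+ cells. The median log2 difference of the 9 partners was 0.21 in ALCAM+ over marker-negative, 1.39 in Sca-1+ over marker-negative and -0.37 in ALCAM+ over Sca-1+, where all measured genes had -0.03, 0.00 and -0.01. The 3 higher in Sca-1+ cells were Itgb3, a subunit of the vitronectin receptor (8.0, 1714 and 65.8 in ALCAM+ cells, Sca-1+ cells and marker-negative cells, at least 22.7-fold), Egfr, the epidermal growth factor receptor (81.1, 3088 and 227.5, 13.6-fold), and Mrc2, the collagen uptake receptor that binds the urokinase receptor (2645, 3298 and 758.7, 4.35-fold). Itgb3 passed the floor in Sca-1+ cells alone, so its peak there is fixed by the filter. The other probe sets of Itgb3 and Mrc2 did not pass the floor on any array. Of the 4 other Egfr probe sets above the floor, each had the same direction, but 2 reached 2-fold and 1 reached 4-fold. Vldlr, a lipoprotein receptor that takes up the same complexes, was 8.05-fold above marker-negative cells in ALCAM+ cells, at 3640 against 452.2, with 1252 in Sca-1+ cells, and its 5 other probe sets above the floor pointed the same way.

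**Figure D4:**
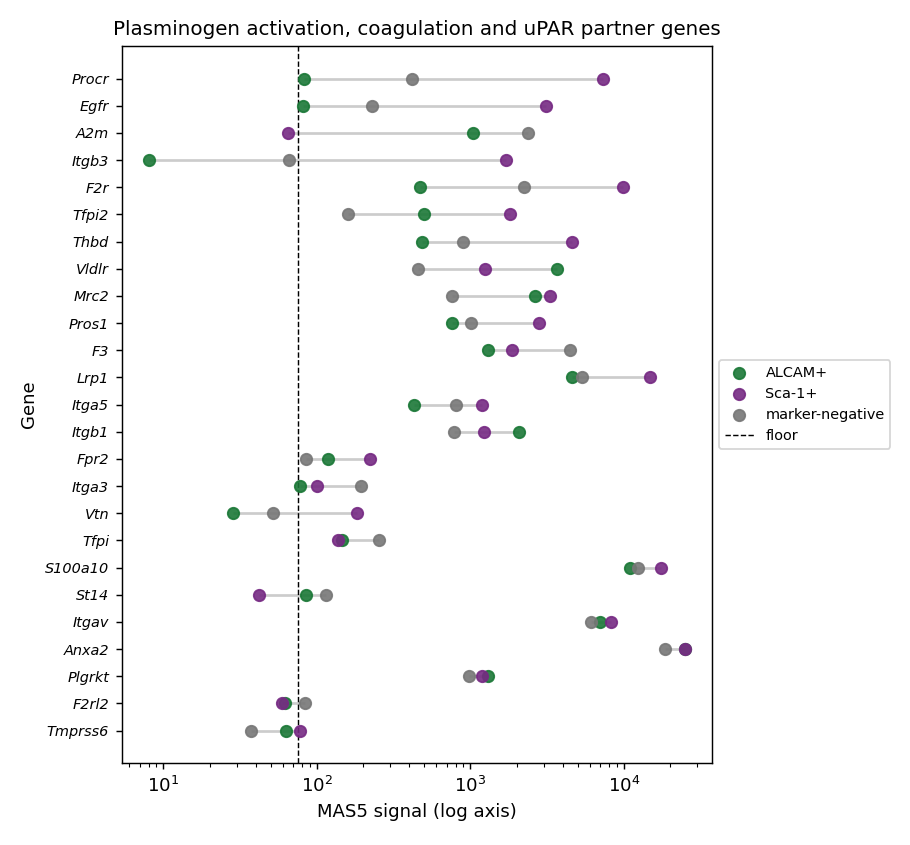
MAS5 signal on a log axis (horizontal) of 25 genes of plasminogen activation, coagulation and urokinase receptor partners above the floor on at least 1 array (vertical), 1 point per array coloured by population, with the floor of 75.4 dashed and genes ordered by their largest difference. Procr, Egfr, Itgb3 (above the floor there alone), F2r and Thbd have their highest point in Sca-1+ cells, whereas Anxa2, Itgav and Plgrkt have their 3 points close together.

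Genes of proteins on which plasmin acts, and of related matrix enzymes, differed in both directions. Of 13 measured, in Sca-1+ against marker-negative cells 1 passed 4-fold on the higher side and 2 on the lower. In ALCAM+ against marker-negative cells 0 passed in either direction (under the poly-A and hybridization control scalings 2 and 1 were lower). The brightest probe set was chosen after scaling, and on the poly-A controls Timp2 was read from another probe set. Its log2 difference there went from -0.56 to -2.01, while Fgg went from -1.97 to -2.50. In ALCAM+ against Sca-1+ cells 2 were higher and 2 lower, which became 1 and 4 under either spike-in scaling. In Sca-1+ against marker-negative cells those scalings gave 2 higher and 2 lower. Over all measured genes 2.01% were higher and 2.67% lower in ALCAM+ against marker-negative cells. The shares were 5.46% and 4.71% in Sca-1+ against marker-negative cells and 3.99% and 5.86% in ALCAM+ against Sca-1+ cells. Under those scalings the 741 genes lower in this last comparison became 1514 and 1403. The median log2 difference of the list was 0.00, 0.83 and 0.00 in ALCAM+ over marker-negative, Sca-1+ over marker-negative and ALCAM+ over Sca-1+. All measured genes had -0.03, 0.00 and -0.01. Mmp3, stromelysin, whose proenzyme plasmin can cut, had 380.6 in ALCAM+ cells, 4040 in Sca-1+ cells and 896.3 in marker-negative cells, 4.51-fold above marker-negative cells in Sca-1+ cells and 10.6-fold below Sca-1+ cells in ALCAM+ cells. Mmp13, the collagenase of hypertrophic cartilage and bone, had 2752, 211.6 and 1622, 7.67-fold below marker-negative cells in Sca-1+ cells. Fgg, a fibrinogen chain, had 200.3, 2.90 and 786.0, at least 10.4-fold below marker-negative cells in Sca-1+ cells. Tgfb1, whose latent protein plasmin can release, had 2700, 409.3 and 1395, 6.60-fold above Sca-1+ cells in ALCAM+ cells, though its other probe set reached less than 2-fold and the spike-in scalings gave 3.69-fold and 3.89-fold.

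Genes of 6 binding partners proposed for the Serpinf1 protein were measured, and 1 was higher and 0 lower in Sca-1+ against marker-negative cells, 0 higher and 1 lower in ALCAM+ against marker-negative cells, and 1 higher and 2 lower in ALCAM+ against Sca-1+ cells. Under either spike-in scaling these became 2 and 0, 0 and 2, and 0 and 2, with Plxdc1 and Plxdc2 each gaining a call and Col1a1 losing its own. Over all measured genes the shares were 5.46% and 4.71%, 2.01% and 2.67%, and 3.99% and 5.86%. By the probe set read for each, the genes of the surface proteins Plxdc1 and Plxdc2 were brightest in Sca-1+ cells. Plxdc1 had 252.9 in ALCAM+ cells, 3879 in Sca-1+ cells and 1075 in marker-negative cells, and Plxdc2 had 343.3, 7468 and 1250. Plxdc2 was 5.98-fold above marker-negative cells in Sca-1+ cells and Plxdc1 4.25-fold below marker-negative cells in ALCAM+ cells. The other Plxdc1 probe set above the floor reached less than 2-fold in that comparison. Between ALCAM+ and Sca-1+ cells that probe set had no floored difference in either direction, so it did not show the peak over ALCAM+ cells. Col1a1, the collagen to which the protein binds, had 49506, 7959 and 13081, with its peak in ALCAM+ cells as Serpinf1 had. Pnpla2, a lipase described as a receptor, had 596.1, 630.6 and 355.1 and did not pass 4-fold.

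The 7 serine proteases read here are of granulocytes and killer cells, among them targets of Serpina3n and Serpinb6a. Of these, 6 had a probe set and 3 were above the floor. Ctsg and Elane passed it in marker-negative cells alone, so their peak there is fixed by the filter. Prtn3 had 22.3 in ALCAM+ cells, 109.7 in Sca-1+ cells and 530.5 in marker-negative cells, and Ctsg, cathepsin G, had 6.30, 32.5 and 267.9. Prtn3 was 4.84-fold and Elane at least 6.41-fold below marker-negative cells in Sca-1+ cells, and Prtn3 fell short of 4-fold under the spike-in scalings, at 3.91-fold and 3.93-fold.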

How the data were processed

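Linear signal intensities of 45101 probe sets on each of 3 arrays were analysed as deposited. The authors computed them with MAS5, per the submitters' processing notes, in a version not given in the sources used here. RNA was amplified by a 2-cycle biotin labelling, per the labels' protocols, which weights transcripts toward their 3' ends. The 2% trimmed mean was 500 on each array, so no further scaling was applied; this equalises total signal, and RNA per cell cannot be read from it. Control probe sets (64) were left out. Probe sets were named by the platform annotation, checked by Entrez identifier against RefSeq (0 symbols changed): 34945 probe sets had 1 symbol, 932 several and 9160 were unlisted.

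Signals were floored at 75.4 and turned to log2 with pandas 2.3.3 and numpy 2.4.6 in Python 3.11.15; 4-fold counted as apart. The procedure was tested on simulated data. The number of arrays, 1 per population, limits the precision. Members and gene lists were chosen with earlier results of these data known. Named are all members, up to 8 genes per list at least 4-fold apart, and Serpinf2, Serpinb2, Plg and Lrp1; fewer are printed, and a further gene of the rule is not reported here. Paralogues, neighbours, Serpinb9, Serpinh1, Anxa2, S100a10, Pnpla2 and Ctsg were added after their values were seen. Alternatives were 2 other floors, quantile and 2 spike-in scalings, 2 other probe set rules and a 2-fold rule.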

Additional observations from a re-analysis of the deposited data

How the results depend on the processing

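Among 126 member log2 differences under 7 alternatives, 99 moved by less than the SD between probe sets of a gene and 27 by more. No difference of at least 4-fold changed sign. Some of the 99 could not move. Plaur, Serpina3n and Serpinb6a had a single probe set, so both other probe set rules returned their main values. The floor at the 25th percentile could change Plau alone, since the other members passed the main floor on every array. Plaur, Serpinb6a and Serpinf1 also passed the floor at the 75th percentile on every array. The count of 99 is therefore not a measure of stability. In ALCAM+ against marker-negative cells the members at least 4-fold apart, 1 in the main setting, became 0 with the floor at the 75th percentile, which lies above both Serpina3n and Plat in ALCAM+ cells, and 2 under the poly-A and under the hybridization control scaling (Plat added), with probe sets averaged and with the second brightest probe set (Serpinf1 added). In Sca-1+ against marker-negative cells the 2 members became 3 with the floor at the 25th percentile (Plau added) and under quantile and both spike-in scalings (Serpinb6a added); with the second brightest probe set they were Serpina3n and Serpinf1, as Plat fell short. In ALCAM+ against Sca-1+ cells the 2 became 3 with the floor at the 25th percentile (Plau added) and under both spike-in scalings (Serpinb6a added), and 1 with the second brightest probe set, without Plat. The 2-fold rule gave 3, 4 and 4 members in ALCAM+ over marker-negative, Sca-1+ over marker-negative and ALCAM+ over Sca-1+.

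Over all genes, 592, 1285 and 1245 were 4-fold apart in these comparisons. The floor at the 75th percentile gave 208, 568 and 612 and the 2-fold rule 2183, 3500 and 3415; in ALCAM+ over marker-negative, the floor at the 25th percentile gave 961 and averaged probe sets 362. The split of 254 higher and 338 lower there became 162 and 584 on the poly-A and 165 and 542 on the hybridization controls. That of 690 and 595 in Sca-1+ over marker-negative became 957 and 513, and 950 and 513. That of 504 and 741 in ALCAM+ over Sca-1+ became 279 and 1514, and 296 and 1403. Those scalings moved the median of all measured genes to -0.49 and -0.43, 0.25 and 0.25, and -0.78 and -0.72. The cause was not tested. No paired analysis was possible because each population has 1 array. Plau and the second Plat probe set are limited by signals near the floor.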
